A study of Danio rerio with 11 samples.

Results

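Among zebrafish aldehyde dehydrogenases that act in the making and breakdown of amino acids and related amines, 9 genes were examined, not a complete set. Lying outside the aldh3 and retinoic acid groups, they are aldh2.1, aldh2.2, aldh4a1, aldh5a1, aldh6a1, aldh7a1, aldh9a1a.1, aldh9a1b and aldh18a1. They were taken by name, and all 9 were found among the 30243 genes listed and entered the test of 22182 genes. Another 12 listed genes have a symbol that starts with aldh. RNA from zebrafish embryos at 48 hours after fertilisation was sequenced as 5 wild-type libraries (WT) and 6 libraries from aldh3a1 knockouts (aldh3a1_KO), 11 in all. The extraction protocol names the TG(fli1:EGFP) line, a reporter line in which the fli1 promoter drives a green fluorescent protein in blood vessels, so both genotypes are taken to carry it. Embryos were kept with or without PTU, a blocker of pigment formation, and the labels give neither which libraries received it, nor the mutation, nor whether a library was a pool or a separate clutch. Throughout, n is 5 WT and 6 aldh3a1_KO libraries. The p-values measure the spread between these libraries, which may in part be technical.

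Aldehyde dehydrogenases oxidise an aldehyde to an acid with NAD or NADP, and most rest on a catalytic cysteine that holds the substrate as a thioester. Several close a catabolic route in the mitochondrial matrix, where the amino acid skeleton then enters the citric acid cycle. The enzyme of aldh18a1 stands apart because it runs in the reductive direction and starts proline synthesis from glutamate, while the enzyme of aldh4a1 returns the same semialdehyde to glutamate when proline is broken down. The liver and kidney are rich in these enzymes in adult vertebrates.

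The transcripts of 7 of the 9 genes were lower in aldh3a1_KO embryos and none was higher. The fall was largest for the proline catabolic gene aldh4a1, whose mean in aldh3a1_KO was 17.8% of that in WT, followed by aldh2.2 at 28.6%, the valine catabolic gene aldh6a1 at 37.7%, the lysine catabolic gene aldh7a1 at 51.7% and aldh9a1a.1 at 52.8%. The transcripts of aldh9a1b and aldh2.1 fell less, to 67.8% and 70.8%. The transcripts of aldh5a1 and aldh18a1 stood at 79.7% and 90.3% of WT and did not pass the test. These shares are of mean CPM, a count scaled to the size of its library after the trimmed mean of M values (TMM). The test was edgeR's two-sided quasi-likelihood F test, and a gene counted as changed when its p, adjusted over all 22182 genes by the Benjamini-Hochberg method, was under 0.05. By the same rule 55.3% of all genes tested changed, 29.3% lower and 26% higher, so a lower call is common in these libraries. The median log2 fold change over the 9 genes was -0.92, beside -0.12 over all genes tested. Of the 9, 3 were called and fell at least 2-fold, as did 19.1% of all genes.

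The libraries differed in more than genotype. Totals ran from 18084798 to 19972027 estimated counts in WT and from 9217936 to 17165804 in aldh3a1_KO, without overlap, and mitochondrially encoded transcripts took 4.63 to 5.62% of counts in WT and 5.01 to 25.9% in aldh3a1_KO. That share was 25.9, 19.8 and 20.9% in aldh3a1_KO 1, 5 and 6. The targeted gene aldh3a1 had a mean of 5.79 ± 1.30 CPM (SD) in the WT libraries and of 3.77 ± 1.20 CPM in the knockouts, a log2 fold change of -0.62 ± 0.27 (SE) that missed the threshold (edgeR adjusted p = 0.0621, and limma adjusted p = 0.0300 on log2(TPM + 1)). It was -0.38 without aldh3a1_KO 6. The estimated counts of aldh3a1 were not whole numbers (within 1e-06), so reads were shared between transcripts. Marker lists were chosen with earlier results of these data known, so their counts only describe the libraries. In them, 10 of 10 skin genes and 8 of 10 skeletal muscle genes were lower, and 5 of 10 neuronal genes were higher. Beside them, 29.3% of all genes tested were lower and 26% higher. Among marker genes that entered the test, 3 of 9 pronephric tubule genes were lower, near that share, and 1 of 8 liver genes, below it. No marker was at 0 in every library, and 8 of 9 lens genes were lower while 5 of 9 blood genes were lower and 2 higher. In bulk RNA, fewer cells of a type and less RNA per cell cannot be told apart.

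**Figure D1:**
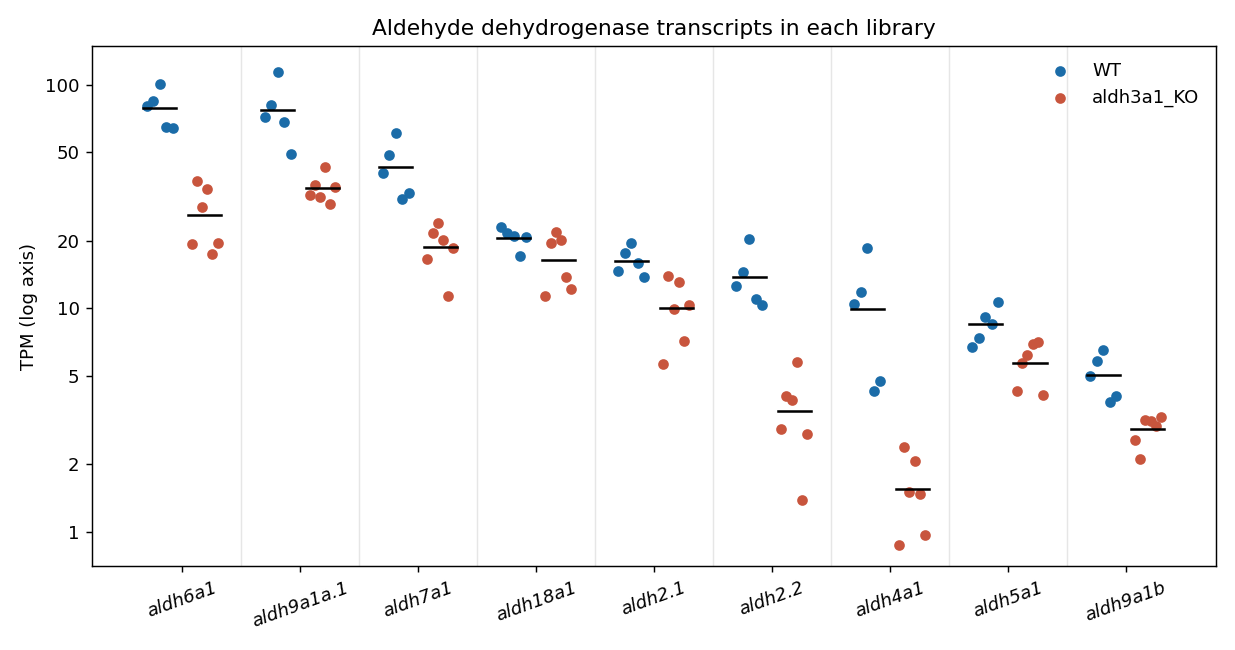
Level of each gene in each library in TPM (estimated transcript abundance scaled for length and depth, log axis), with WT in blue, aldh3a1_KO in red, libraries from left to right in the order of their replicate numbers and black lines at the group means. The groups stand clear of each other for aldh6a1, aldh9a1a.1, aldh7a1, aldh2.2, aldh4a1 and aldh9a1b and overlap for aldh18a1, aldh2.1 and aldh5a1.

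Levels can be compared between genes in TPM, which the authors scaled for transcript length and depth. In WT the most abundant of the 9 transcripts were aldh6a1 at 79.2 ± 15.1 TPM and aldh9a1a.1 at 77.3 ± 24.1 TPM (SD, n = 5), whose ranges overlapped. The transcript of aldh7a1 followed at 42.9 ± 12.4 TPM, above aldh18a1 in all 5 libraries with no overlap. From aldh18a1 (20.8 ± 2.26 TPM) through aldh2.1 (16.4 ± 2.34), aldh2.2 (13.8 ± 4.05), aldh4a1 (9.97 ± 5.88) and aldh5a1 (8.49 ± 1.54), each gene's range overlapped that of the next. The transcript of aldh9a1b was lowest, at 5.04 ± 1.14 TPM, below aldh5a1 in every WT library and with no overlap.

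In aldh3a1_KO the order of the means was different at both ends. The transcript of aldh9a1a.1 was first at 34.5 ± 4.83 TPM and above aldh6a1, at 26.1 ± 8.48 TPM, in 5 of 6 libraries (SD, n = 6). In WT aldh6a1 was above aldh9a1a.1 in 3 of 5 libraries, so these genes had no clear order there. At the other end aldh4a1 was last at 1.55 ± 0.601 TPM, below aldh9a1b (2.87 ± 0.438 TPM) in 5 of 6 libraries. The transcript of aldh2.2, at 3.45 ± 1.49 TPM, was below aldh5a1, at 5.70 ± 1.29 TPM, in all 6 libraries, whereas in WT its mean was above that of aldh5a1. Ranges of neighbours overlapped throughout this order.

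Proline is made from glutamate through a semialdehyde and is broken down through the same compound. The enzyme of aldh4a1, pyrroline-5-carboxylate dehydrogenase, carries out the last step of breakdown in mitochondria. Its transcript was at 19.2, 19.6, 29.99, 7.67 and 8.26 CPM in WT 1 to 5 and between 2.197 and 4.50 CPM in aldh3a1_KO, with a median of 2.84 CPM. Every aldh3a1_KO library was below every WT library, although WT itself varied 4.37-fold in TPM, with WT 3 high and WT 4 and 5 low. The log2 fold change was -2.48 ± 0.35 (SE; edgeR adjusted p = 7.55e-05). The counts behind it ran from 152 to 608 in WT and from 25 to 76 in aldh3a1_KO, so the level in aldh3a1_KO rests on few reads.

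The enzyme of aldh18a1, pyrroline-5-carboxylate synthase, catalyses the first steps of proline synthesis. Its transcript was at 104, 88.1, 82.8, 74.7 and 88.5 CPM in WT and between 70.5 and 91.7 CPM in aldh3a1_KO, with a median of 76.2 CPM. The groups overlapped, and the log2 fold change was -0.15 ± 0.14 (SE; edgeR adjusted p = 0.401). Without aldh3a1_KO 1, 5 and 6 it was 0.03. Whether the genes of synthesis and breakdown differed in their change was asked within each library, where scaling cancels.

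The ratio of aldh18a1 to aldh4a1 in TPM lay between 1.13 and 4.40 in WT, with a median of 2.22, and between 8.22 and 14.6 in aldh3a1_KO, with a median of 11.2. The ranges did not overlap. On the log2 scale of TPM + 0.1 the mean was 1.26 ± 0.80 in WT and 3.37 ± 0.30 in aldh3a1_KO, a difference of 2.12 (SD; exact two-sided permutation p = 0.00433, and 0.00649 adjusted over 3 ratios). That p is the smallest that the possible splits of 11 libraries allow in a two-sided test.

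Of 12 other genes of proline and ornithine metabolism that entered the test, 7 were lower and 1 was higher (all genes tested 29.3% and 26%), with a median log2 fold change of -0.70. The transcript of oat, ornithine aminotransferase, which feeds the same semialdehyde from ornithine, had means of 13.3 ± 6.91 CPM in WT and 0.605 ± 0.417 CPM in aldh3a1_KO (SD), a log2 change of -4.35 ± 0.51 (SE, edgeR adjusted p = 2.54e-05), or -2.30 on log2(TPM + 1), which understates changes of low genes. The transcript of prodha, proline dehydrogenase, the step before aldh4a1, changed by -1.46 ± 0.31 in log2 (SE, edgeR adjusted p = 0.00144). The transcript of pycr1a, a pyrroline-5-carboxylate reductase gene that completes synthesis after aldh18a1, rose 1.58 ± 0.20 in log2 (edgeR adjusted p = 4.05e-05), with means of 37.3 ± 5.83 and 112 ± 28.6 CPM. The reductase genes pycr3 (-0.83 ± 0.22) and pycr1b (-0.47 ± 0.15) fell, and p4ha2, whose product hydroxylates proline in collagen, fell as well, with means of 13.7 ± 3.96 and 4.85 ± 2.22 CPM (edgeR adjusted p = 0.000722). Without aldh3a1_KO 1, 2 or 6 the adjusted p of pycr1b was 0.0849, 0.0556 and 0.0988. The genes prodha, pycr1b, pycr3, hibadha, abat, gad1b and bbox1 are named here and in what follows as steps near the 9 genes, dbt for its large change, and all were chosen after their values were seen.

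**Figure D2:**
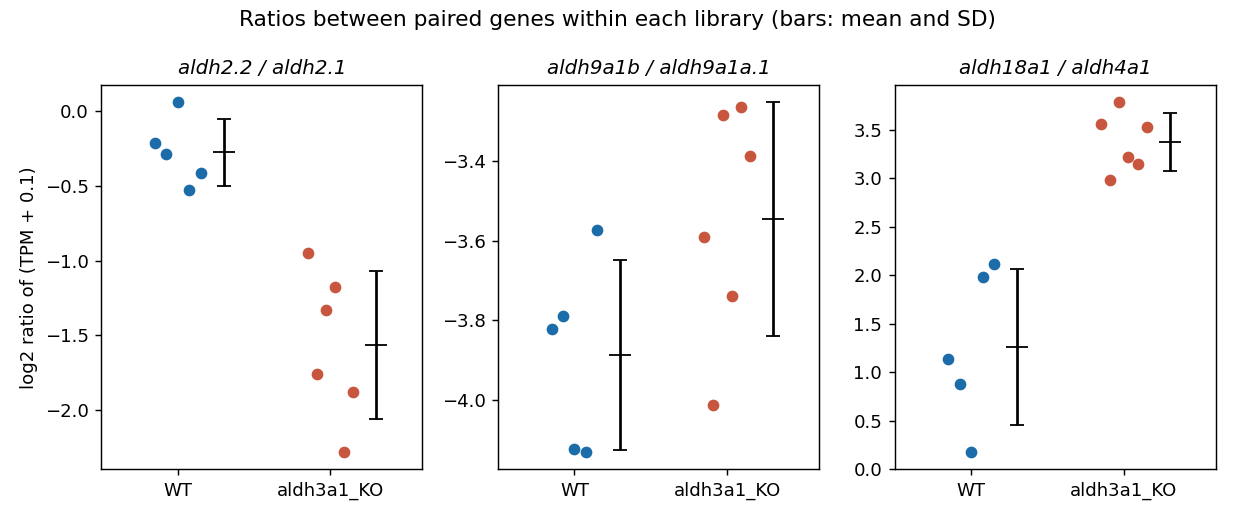
Log2 ratio of TPM + 0.1 within each library for 3 pairs of genes, with WT in blue, aldh3a1_KO in red and black marks for the mean and SD of each group. The aldh2.2 to aldh2.1 and aldh18a1 to aldh4a1 ratios do not overlap between groups, and the aldh9a1b to aldh9a1a.1 ratio does.

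Valine is broken down through methylmalonate semialdehyde, which the enzyme of aldh6a1 converts to propionyl-CoA in the mitochondrial matrix. Its transcript was at 161, 153, 177, 127 and 122 CPM in WT and between 39.9 and 76.2 CPM in aldh3a1_KO, with a median of 53.3 CPM. The lowest WT library was well above the highest aldh3a1_KO library, and the log2 fold change was -1.41 ± 0.18 (SE; edgeR adjusted p = 3.56e-05). In aldh3a1_KO 2 and 4, whose mitochondrial shares of 7.44 and 5.01% were nearest to WT, it was at 37.4 and 34.2 TPM, against 64.6 TPM or more in WT. In these libraries aldh18a1 was at 19.7 and 20.2 TPM, within its WT range of 17.1 to 23.2 TPM. So were aldh2.1 in aldh3a1_KO 2 and aldh5a1 in aldh3a1_KO 4 within theirs. In TPM 6 of the 9 genes, aldh6a1 among them, were below WT in every aldh3a1_KO library, as were 23.1% of all genes tested. The part of the mitochondrial share was not tested.

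Of 24 genes of branched-chain amino acid breakdown that entered the test, 17 were lower and 1 was higher, beside 29.3% and 26% of all genes, with a median log2 fold change of -0.67. The step before aldh6a1 is 3-hydroxyisobutyrate dehydrogenase, and both of its genes fell in log2, hibadhb by 1.18 ± 0.18 (SE, edgeR adjusted p = 0.000118), with means of 70.3 ± 9.10 and 31.1 ± 6.86 CPM, and hibadha with a change of -0.72 ± 0.17 (adjusted p = 0.00319). The transcript of bckdha, a subunit of the branched-chain keto acid dehydrogenase, changed by -1.75 ± 0.29 (adjusted p = 0.000209). The lowest log2 fold change of the list was that of dbt, which encodes another subunit of the same complex, at -3.80 ± 0.94 (adjusted p = 0.00378), with means of 52.6 ± 18.3 and 3.68 ± 5.03 CPM, and it was -8.16 with voom. The single riser was ppm1kb, matched through its synonym ppm1k, a phosphatase that in mammals activates that dehydrogenase, with means of 43.7 ± 4.92 and 104 ± 18.4 CPM and a log2 rise of 1.26 ± 0.16 (adjusted p = 3.90e-05).

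Lysine is broken down through pipecolate or saccharopine to aminoadipate semialdehyde, the substrate of aldh7a1, also called antiquitin, whose loss in humans causes pyridoxine-dependent epilepsy. Its transcript was at 67.8, 73.5, 89.8, 50.6 and 52.5 CPM in WT and between 21.7 and 42.7 CPM in aldh3a1_KO, with a median of 37.5 CPM. The groups did not overlap, and the log2 fold change was -0.95 ± 0.20 (SE; edgeR adjusted p = 0.00135). Of 9 other lysine genes tested, 3 were lower and 2 were higher, shares near the 29.3% and 26% of all genes, with a median log2 fold change of -0.39. The transcript of aass, aminoadipate semialdehyde synthase, which makes the substrate of aldh7a1, fell, with means of 14.4 ± 5.26 and 7.22 ± 2.005 CPM (edgeR adjusted p = 0.00628). On log2(TPM + 1) the change of aass was -0.58, with a limma adjusted p of 0.0417, or 0.0542 with no filter. The transcript of crym, known in mammals as a ketimine reductase of the pipecolate branch, changed by -0.91 ± 0.26 in log2 (adjusted p = 0.00979). The transcript of pipox, which oxidises pipecolate in peroxisomes in mammals, rose by 2.46 ± 0.50 in log2 (adjusted p = 0.00100) from a low WT level of 0.412 ± 0.134 CPM to 2.36 ± 1.76 CPM. Without aldh3a1_KO 1, 5 and 6 the rise was 1.49.

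GABA, the main inhibitory transmitter, is broken down to succinate semialdehyde, which the enzyme of aldh5a1 oxidises to succinate in mitochondria. Its transcript was at 16.0, 15.9, 18.7, 19.9 and 24.1 CPM in WT and between 13.5 and 19.9 CPM in aldh3a1_KO, with a median of 14.3 CPM. On this scale only aldh3a1_KO 5 reached into the WT range. In TPM aldh3a1_KO 4 did as well, at 6.90 against a WT minimum of 6.71. The estimated counts of aldh5a1 were not whole numbers, so reads were shared between transcripts. The log2 fold change was -0.33 ± 0.17 (SE; edgeR adjusted p = 0.114). On log2(TPM + 1), where the median of all genes was at -0.26, it was -0.51 with a limma adjusted p of 0.0373.

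Of 14 other genes of GABA and glutamate metabolism that were tested, 8 were lower and 6 higher, where 55.3% of all genes changed, with a median log2 fold change of -0.49. Under the alternatives 11 to 14 of the list passed, beside 11034 to 14550 of the 20335 to 29177 genes tested. The transcript of gad2, a glutamate decarboxylase gene that makes GABA, rose by 1.05 ± 0.19 in log2 (SE, edgeR adjusted p = 0.000448), with means of 94.5 ± 25.0 and 196 ± 31.8 CPM. Another decarboxylase gene, gad1b, rose by 1.09 ± 0.24 (adjusted p = 0.00147), and gad1a rose by 1.26 ± 0.35 (adjusted p = 0.00707). The decarboxylase genes did not all rise, because gad3 changed by -1.26 ± 0.37 (adjusted p = 0.0107), with means of 8.87 ± 2.72 and 3.68 ± 1.95 CPM. The neuronal marker list had a summed level of 1421 to 2096 TPM in WT and 1388 to 3776 TPM in aldh3a1_KO. Its part in the rises of gad2, gad1b and gad1a was not tested. The transcript of abat, the transaminase that yields the substrate of aldh5a1, changed by -0.83 ± 0.30 in log2 (edgeR adjusted p = 0.0293). Leaving out WT 3 or 5 gave an adjusted p of 0.0676 or 0.0501, and it became 0.0753, 0.104, 0.0736, 0.0612 and 0.111 without aldh3a1_KO 1, 2, 3, 4 or 6. The glutamate dehydrogenase genes glud1a and glud1b, which link glutamate to the citric acid cycle, changed by -1.72 ± 0.20 and -1.59 ± 0.25 (adjusted p = 2.41e-05 and 0.000158).

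The aldh9a1 enzymes oxidise trimethylaminobutyraldehyde on the way to carnitine and aminobutyraldehyde from polyamines, in the cytosol. The transcript of aldh9a1a.1 was at 144, 147, 201, 134 and 93.6 CPM in WT and between 58.9 and 95.6 CPM in aldh3a1_KO, with a median of 73.4 CPM. On this scale aldh3a1_KO 6 lay just above WT 5, and in TPM the groups did not overlap. The log2 fold change was -0.92 ± 0.20 (SE; edgeR adjusted p = 0.00128). Its estimated counts were not whole numbers, so reads were shared, and its neighbour in GRCz12tu is the related gene aldh9a1a.2, which is not among the 9.

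The transcript of aldh9a1b was at 9.30, 9.87, 10.7, 6.96 and 7.17 CPM in WT and between 4.03 and 8.28 CPM in aldh3a1_KO, with a median of 5.90 CPM. The groups overlapped, and the log2 fold change was -0.56 ± 0.22 (SE; edgeR adjusted p = 0.0409). That call was lost when single libraries were left out, with an adjusted p of 0.0776, 0.0886 and 0.0956 without WT 1, 2 or 3, of 0.0968, 0.154, 0.0846, 0.0851 and 0.0969 without aldh3a1_KO 1, 2, 3, 4 or 5, and of 0.0712 with the replicate block. Without aldh3a1_KO 2 its log2 fold change was -0.36. Summed with aldh9a1a.1, the log2 fold change was -0.90 (edgeR adjusted p = 0.00141). That sum is mostly aldh9a1a.1, with a mean of 2921 counts in WT against 179 for aldh9a1b, so it says little about aldh9a1b. The ratio of aldh9a1b to aldh9a1a.1 was 0.0557 to 0.0822 in WT and 0.0593 to 0.101 in aldh3a1_KO, a difference of 0.34 on the log2 scale of TPM + 0.1 (exact two-sided permutation p = 0.0693 before and after adjustment over 3 ratios). The difference passed without WT 5 (adjusted p = 0.0381) or aldh3a1_KO 2 (0.0238).

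Among 16 genes of carnitine, choline and polyamine metabolism that were tested, 3 were lower and 2 were higher, smaller shares than the 29.3% and 26% of all genes, with a median log2 fold change of -0.30. The transcript of tmlhe, trimethyllysine dioxygenase, which opens carnitine synthesis, fell by 1.93 ± 0.50 in log2 (SE, edgeR adjusted p = 0.00463), with means of 6.16 ± 1.32 and 1.54 ± 1.4999 CPM, and with a change of -1.23 without aldh3a1_KO 1, 5 and 6, while bbox1, which closes it, was at -0.16 ± 0.25 (adjusted p = 0.587) and at 0.05 without aldh3a1_KO 2. The polyamine oxidase gene paox rose by 1.81 ± 0.26 (adjusted p = 8.79e-05), with means of 19.7 ± 4.93 and 69.0 ± 23.9 CPM, and dmgdh, which oxidises dimethylglycine from choline, changed by -1.13 ± 0.22 (adjusted p = 0.000783). With voom 10 of the 16 passed, beside 14550 of all 22182 genes tested. On log2(TPM + 1) 9 of 16 passed, beside 12379 of 22182, and on log2(TPM + 0.1) 8 of 16, beside 12206. On log2(TPM + 1) with no filter 8 of 18 passed, beside 13334 of 29177.

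The enzyme of aldh2 is the mitochondrial dehydrogenase best known for clearing acetaldehyde and lipid aldehydes, and it also oxidises the aldehydes that monoamine oxidase makes from amines. Zebrafish have the pair aldh2.1 and aldh2.2, which are neighbours in the gene order of the RefSeq assembly GRCz12tu. The transcript of aldh2.2 was at 23.4, 24.5, 33.3, 20.02 and 18.3 CPM in WT and between 2.98 and 9.30 CPM in aldh3a1_KO, with a median of 7.14 CPM. The groups stood far apart, and the log2 fold change was -1.80 ± 0.25 (SE; edgeR adjusted p = 6.76e-05).

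The transcript of aldh2.1 was at 26.3, 28.9, 30.9, 28.0 and 23.6 CPM in WT and between 13.9 and 25.7 CPM in aldh3a1_KO, with a median of 18.7 CPM. The libraries aldh3a1_KO 2 and 6 reached into the WT range, and the log2 fold change was -0.50 ± 0.19 (SE; edgeR adjusted p = 0.0405). Leaving out WT 1, 2, 3 or 4 moved the adjusted p to 0.0605, 0.0772, 0.0850 and 0.0664, and it was 0.163, 0.0899, 0.0568 and 0.155 without aldh3a1_KO 1, 3, 4 or 5. The log2 fold change was -0.31 without aldh3a1_KO 1 and -0.33 without aldh3a1_KO 5.

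The 2 copies did not fall in step. The ratio of aldh2.2 to aldh2.1 was 0.691 to 1.04 in WT, with a median of 0.820, and 0.194 to 0.509 in aldh3a1_KO, with a median of 0.341. The difference on the log2 scale of TPM + 0.1 was -1.29, with means of -0.28 ± 0.22 and -1.56 ± 0.50 (SD; exact two-sided permutation p = 0.00433, and 0.00649 adjusted over 3 ratios). Neither copy had a whole-number estimated count in any of the 11 libraries (within 1e-06), so reads shared between transcripts were divided by the authors' quantifier and the split carries that uncertainty. The sum of both copies, which does not depend on how reads were split between them, had a log2 fold change of -0.96 (edgeR adjusted p = 0.000815). The summed counts were not whole numbers either, so the sum still carries the division of reads shared with transcripts outside the pair.

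**Figure D3:**
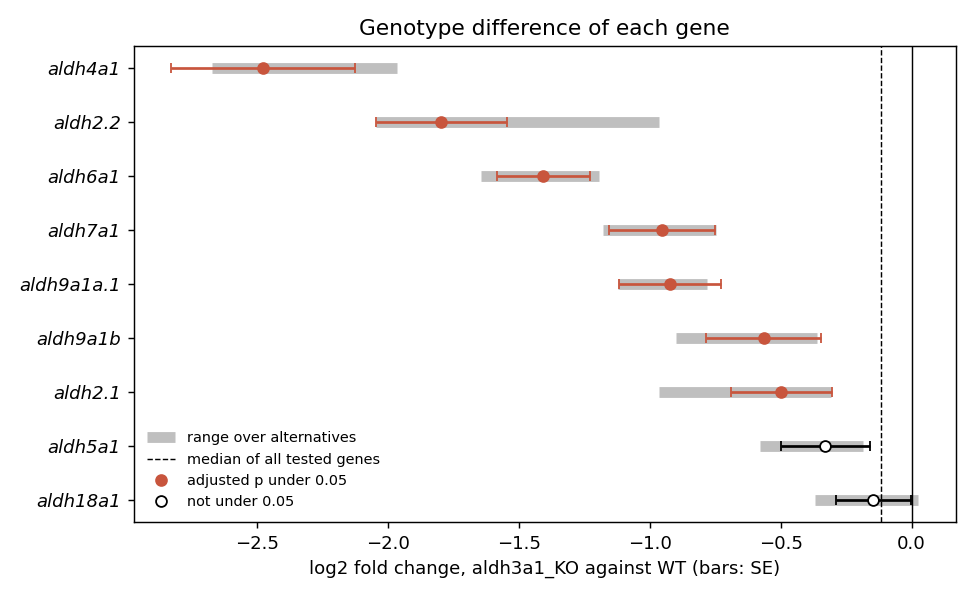
Log2 fold change of each gene, aldh3a1_KO against WT, with its SE, filled where the adjusted p was under 0.05, over grey bars that span 26 alternative fits. The dashed line marks the median of all tested genes at -0.12. The bars of aldh2.1 and aldh2.2 meet at -0.96 because one alternative sums the pair, and that of aldh18a1 alone crosses 0. The bar of aldh9a1b likewise reaches -0.90 only through its sum with aldh9a1a.1, and -0.81 without it.

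Separation of the groups was checked against the whole table. Every aldh3a1_KO library was below every WT library for 4 of the 9 genes in CPM, aldh2.2, aldh4a1, aldh6a1 and aldh7a1, where 20% of all genes tested showed this. In TPM the number was 6 of 9, with aldh9a1a.1 and aldh9a1b added, against 23.1% of all genes. With limma on log2(TPM + 1), 8 of 9 were lower, against 36% of all genes. Without aldh3a1_KO 1, 5 and 6, edgeR called 6 of 9 lower, against 26.1% of all genes, and the log2 fold changes were -2.23 for aldh4a1, -1.55 for aldh2.2, -1.19 for aldh6a1, -0.89 for aldh7a1, -1.02 for aldh9a1a.1 and -0.81 for aldh9a1b.

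Most of the 9 genes were highest in the same WT library. WT 3 held the highest TPM for 7 of the 9 genes, and WT 4 and WT 5 each held the lowest for 4. The transcript of aldh5a1 was highest in WT 5, at 10.6 TPM, and that of aldh18a1 in WT 1, at 23.2 TPM. Each pathway list also had its highest WT sum in WT 3. The share of all genes highest in WT 3 was not computed, so whether this is particular to the 9 genes was not tested. The summed level of the 9 genes was 266, 294, 373, 225 and 211 TPM in WT 1 to 5 and ran from 91.9 to 149 TPM in aldh3a1_KO. Muscle, skin and tubule markers were also highest in WT 3, while the other marker lists were not. The summed level of the 10 skeletal muscle markers was 36294 TPM in WT 3 and 7870 to 23592 TPM in the other WT libraries, with 1804 to 12463 TPM in aldh3a1_KO. The skin markers summed to 9878 TPM in WT 3 and 5603 to 7609 TPM in the other WT libraries, with 1191 to 2252 TPM in aldh3a1_KO. The 9 pronephric tubule markers summed to 46.1 TPM in WT 3, 20.4 to 31.8 TPM in the other WT libraries and 10.1 to 19.4 TPM in aldh3a1_KO. Their part in the differences of the 9 genes was not tested. Neuronal markers were lowest in WT 3 at 1421 TPM, and lens and blood markers were highest in WT 5, at 6636 and 3492 TPM, against 3386 and 2581 TPM in WT 3. Liver markers were at 392 and 587 TPM in WT 3 and 4, at 27.6 TPM in WT 5 and at 64.0 to 580 TPM in aldh3a1_KO, and the liver genes fabp10a and ttr did not enter the test.

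The citric acid cycle takes up the products of several of these routes. Of its 15 listed genes, edgeR called 13 lower and 0 higher in aldh3a1_KO, beside 29.3% and 26% of all genes, and suclg2 (-0.35, adjusted p = 0.0874) and idh3a (0.06, adjusted p = 0.746) did not pass. The list's median log2 fold change was -1.08. The oxoglutarate dehydrogenase gene ogdhb fell by 2.08 ± 0.28 in log2 (SE), and the succinyl-CoA ligase genes sucla2 and suclg1 changed by -1.34 ± 0.19 and -1.21 ± 0.16 (edgeR adjusted p = 5.17e-05, 8.40e-05 and 5.25e-05). The list summed to 2000 TPM in WT 3, 1328 to 1782 TPM in the other WT libraries and 616 to 1075 TPM in aldh3a1_KO, so it too was highest in WT 3.

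**Figure D4:**
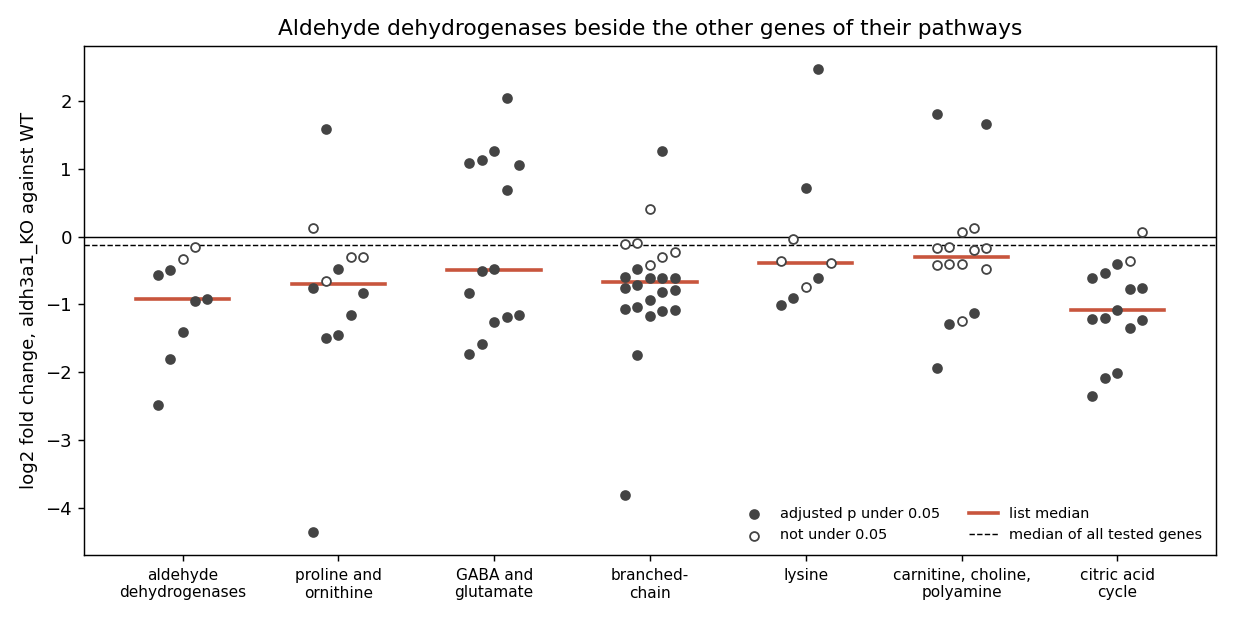
Log2 fold change, aldh3a1_KO against WT, of every tested gene in the 9 aldehyde dehydrogenases and 6 pathway lists, filled where the adjusted p was under 0.05, with a red line at each list's median and a dashed line at the median of all tested genes. The GABA and glutamate list holds filled points on both sides of 0, and 13 of 15 citric acid cycle genes are filled and below it.

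Across the 11 libraries, the genes with the most similar profiles were found by the root mean square difference between centred log2(CPM + 0.5) values, over 14571 genes with a given name and a mean of at least 2 CPM. The closest to aldh6a1 were etfdh, an electron transfer flavoprotein dehydrogenase gene, and xrcc6, a DNA repair gene, at 0.093 and 0.094 log2 units. For aldh2.2 they were haus8 and top3b (0.17 and 0.18), for aldh4a1 wtip and cbfa2t2 (0.28 and 0.31), for aldh7a1 nr2f5 and snx18a (0.13 and 0.14) and for aldh9a1a.1 dennd2da and paics (0.13 and 0.15). For aldh9a1b they were stim2b and shisa2b (0.14 and 0.15), for aldh2.1 vmp1 and rad17 (0.11 and 0.11), for aldh5a1 aldocb and atp6v1c1b (0.12 and 0.13) and for aldh18a1 abcg2c and gcfc2 (0.085 and 0.12). The root mean square of a gene's own centred profile was 0.17 for aldh18a1, 0.25 for aldh5a1, 0.74 for aldh6a1 and 1.21 for aldh4a1. Distances to the nearest genes therefore do not rank the matches of the 9 genes. Among the 9 genes themselves the closest pair was aldh7a1 and aldh9a1a.1, at 0.26 log2 units. These values describe profiles that share the genotype difference and carry no test.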

How the data were processed

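RNA sequencing of 5 WT and 6 aldh3a1_KO libraries was used. Per the submitters' processing notes, reads were trimmed with Trim Galore 0.6.4 and quantified with kallisto, its version given as 0.4.6, with danRer11 as the genome build. The values deposited are expected counts, that is kallisto's estimated counts per Entrez gene, and TPM per gene as scaled by the authors. Of 30243 identifiers, 25812 matched a symbol in the RefSeq table of GRCz12tu, used for names and gene order only. Estimated counts were rounded to whole numbers. R 4.3.3 with edgeR 4.0.16 (filterByExpr, TMM, robust quasi-likelihood F test) compared genotypes over 22182 genes. Fold changes are aldh3a1_KO against WT, and SE were taken from the F statistic. Ratios within a library went into two-sided exact permutation tests (scipy 1.17.1), adjusted over 3 ratios.

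The genes and lists were chosen with earlier results of these data known. Genes named are the 9 and aldh3a1, up to 3 called genes of each pathway list with the smallest adjusted p, and the 2 nearest profiles of each of the 9, beside 8 genes picked on their values. The genes gad1a and gad3 were added to complete the listed decarboxylase genes. The alternatives tried were DESeq2 1.42.0 size factors and Wald test, upper-quartile factors, mitochondrially encoded genes left out, no filter, a filter of 1 CPM in 5 libraries, limma 3.58.1 on log2(TPM + 1) or log2(TPM + 0.1) and with voom quality weights, the replicate number as a block, thinning to the smallest library, summed gene pairs, and leaving out libraries. The edgeR fit was tested on simulated counts, in which far fewer genes changed than were called here, with equal numbers up and down. Library totals ran from 9217936 to 19972027 estimated counts.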

Additional observations from a re-analysis of the deposited data

Results flagged for a closer look

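One library lay far from the others of its group for 2 of the 9 genes, judged by Dixon's ratio on log2(CPM + 0.5). In aldh3a1_KO 5, the library with the smallest total, aldh2.2 was at 1.80, below the 2.86 to 3.29 of the other aldh3a1_KO libraries. In the same library aldh5a1 was at 4.35, above the 3.81 to 3.92 of the others. Over 44 groups of values examined, including library totals and marker sums, these were the 2 that stood out. Chance alone flags about 1 group in 20, so this number of flags can arise without any unusual library.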

How the results depend on the processing

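Over 26 alternatives, 5 to 8 of the 9 genes were lower and none was higher. The 8 came on the TPM scales, where 7990 of 22182 genes were lower on log2(TPM + 1). Upper-quartile factors were among the fits with 5, and there 5607 of 22182 genes were lower. A fit that summed a pair counted it as 1 gene. In each such fit 6 of 8 were lower, beside 6507 of 22181 genes tested. The transcripts of aldh2.2, aldh4a1, aldh6a1, aldh7a1 and aldh9a1a.1 were lower under all alternatives. For aldh2.2 and aldh9a1a.1 the result of the pair stood in where their pair was summed. The calls of aldh2.1 and aldh9a1b were lost under 14 and 13, among them DESeq2's Wald test (adjusted p = 0.0535 and 0.0733) and upper-quartile factors (0.0790 and 0.109). Leaving out 1 library gave 5 to 7 lower, beside 5348 to 6350 of the 21806 to 22379 genes tested. The transcript of aldh18a1 turned to 0.025 (log2) without aldh3a1_KO 1, 5 and 6, as did abcg2c (0.031), and gcfc2 was at 0.062 there, 0.0020 with upper-quartile factors, 0.0082 with the replicate block and -0.17 to 0.025 without single libraries. The transcript of bbox1 ran from -0.22 to 0.055 without single libraries, above 0 only without aldh3a1_KO 2. The aldh2.2 to aldh2.1 difference was -1.15 and the aldh18a1 to aldh4a1 difference 2.07 without aldh3a1_KO 1, 5 and 6 (adjusted p = 0.0536 each, where 56 splits remain and the smallest possible p limits the test). With TPM + 1 the aldh9a1b to aldh9a1a.1 difference was 0.47 (adjusted p = 0.0216), and without single libraries it ran from 0.28 to 0.44. Over all genes tested, 4389 were higher and 7990 lower on log2(TPM + 1), against 5761 and 6508 with TMM. The replicate block, on the 10 libraries with shared numbers, gave 6 of 9 genes lower. Over the 21879 genes tested there, 5521 were lower and 11125 were called in either direction. Same-numbered libraries deviated together only weakly (r = 0.149, 0.154, 0.0185, 0.0822 and 0.0109 across genes), so the numbers were not taken as pairs. With the block crym and abat had adjusted p of 0.0635 and 0.0554 and pycr1b of 0.132. The cause of these changes was not tested. The level of aldh4a1 in aldh3a1_KO rests on 25 to 76 counts a library, which limits its precision.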
